A study of Mus musculus with 12 samples.

Results

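The core machinery of autophagosome formation and fusion was examined by transcript level in primary mouse adult fibroblasts (MAFs) treated with thymol. The members were 41 listed genes matched by symbol and ordered into 4 steps, namely initiation, nucleation, conjugation and fusion. Of these, 39 were measured among the 10697 genes of the deposited table, and Nrbf2 and Atg9a were not in it. The listing rule used no measured value, although the genes were listed with earlier results of these data known, and each step was compared between thymol and its solvent with an interval for the step mean.

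In macroautophagy, the ULK kinase complex starts the formation of a cup-shaped membrane, the phagophore, and the class III phosphatidylinositol 3-kinase complex marks that membrane with phosphatidylinositol 3-phosphate (PI3P). Lipid transfer and PI3P-binding proteins then extend the membrane, while ubiquitin-like conjugation reactions attach ATG8 proteins such as LC3 to phosphatidylethanolamine on it. The closed autophagosome fuses with the lysosome through SNARE proteins, tethers and the small GTPase RAB7. Much of this pathway is regulated on existing proteins, by phosphorylation and by lipid conjugation, and the RNA levels reported here measured neither protein nor autophagic flux.

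The MAFs were grown out of tissue pieces from WT mice of the C57BL6/j background and cultured in high-glucose medium with serum. For 24 h they received either thymol, a phenolic monoterpene, at 100 µM or an equal volume of DMSO, the solvent that the treated cells also received, so both groups shared genotype, medium and solvent. Each group held 6 libraries. The sources used here do not say whether these were separate cultures or animals, so p-values measure only the spread between these libraries, which may be technical. Sequencing was done with QuantSeq, a 3′ method that primes on the poly(A) tail, so that the count depends little on transcript length. Levels are therefore set side by side between genes, as levels of reads and not of molecules. PCR and overlapping gene ends can also affect them.

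Levels below are log2 CPM, that is, log2 counts scaled to a common library total, and every difference is thymol minus DMSO on that log2 scale. The reads recovered from the deposited values summed to between 5435985 and 9049796 per library, with a mean of 6530067 ± 1300705 (SD, n = 6) for thymol and 7066612 ± 663203 (SD, n = 6) for DMSO. Fibroblast markers were abundant, with 14 of 15 measured at a median level of 8.48 and Lum not in the table. All 17 of 17 macrophage markers were also measured, at a median level of 7.90. The summed macrophage level ran from 14.19 to 14.44 in thymol and from 14.18 to 14.32 in DMSO, so the groups overlapped. The summed fibroblast level ran from 13.84 to 13.91 in thymol and from 13.92 to 14.03 in DMSO. The fibroblast sums thus did not overlap, every thymol library lying below every DMSO library. Each sum adds CPM before the logarithm, so the most abundant markers weigh most in it. Past the adjusted threshold in limma, 2 of the 14 fibroblast markers and 2 of the 17 macrophage markers were lower with thymol, and 0 were higher. Over all genes, 1.57% were called lower and 0.654% higher. Keratinocyte, endothelial, skeletal muscle and adipocyte lists had 1 of 7, 2 of 6, 1 of 6 and 1 of 5 markers in the table, and 0 of 6 T cell markers were there. The labelled fibroblast cultures thus held RNA of macrophage markers beside fibroblast ones, and the part of this mixture in the values below was not tested. In bulk RNA, fewer cells of a type and less RNA of some of its markers per cell cannot be told apart.

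No member passed the adjusted threshold of 0.05 in limma (0 of 39), against 2.22% of all genes in the table. By direction, 0 members were called higher, where 0.654% of all genes were, and 0 were called lower, where 1.57% were. At an unadjusted p under 0.05 there were 2 members, Vps33a and Vps16, which is 5.13% of the members beside 11.8% of all genes. The thymol and DMSO libraries were fully apart for 0 members and for 1.68% of all genes. Voom on the recovered reads gave 0 members past the adjusted threshold, where 238 of all genes passed. It gave 1 member at an unadjusted p under 0.05, for which no share over all genes was counted. An exact rank-sum test on the same values gave 0 and 2, the 2 beside 1016 of all 10697 genes at an unadjusted p under 0.05. Neither of these 2 members was Vps33a or Vps16. The lowest adjusted p of a member in the rank-sum test was that of Wipi2 (0.365). In that test 0 of all genes passed, with a smallest possible p of 0.002165, so its adjusted result cannot set the members apart. The lowest adjusted p of any member in limma was 0.373, for Vps33a.

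The intervals give the sizes of difference that these libraries allow. The 95% interval of the log2 fold change included 0 for 37 of the 39 members, lay within ±0.5 for 33 and within ±1 for all 39. Distances from estimate to interval end ranged from 0.11 to 0.48 with a median of 0.22. The median absolute log2 fold change was 0.076 over the members and 0.098 over all genes, whereas among the called genes it was 0.38 and the smallest was 0.17. Estimates were above 0 for 23 members and below 0 for 16, a share above 0 of 59.0% beside 50.9% over all genes, and the median was 0.017 beside 0.0026. Averaged over all 39 members, the thymol libraries stood at 5.29 ± 0.034 and the DMSO libraries at 5.28 ± 0.044 (SD over 6 libraries in each group). The difference was 0.014 with a 95% interval from -0.036 to 0.066.

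**Figure D1:**
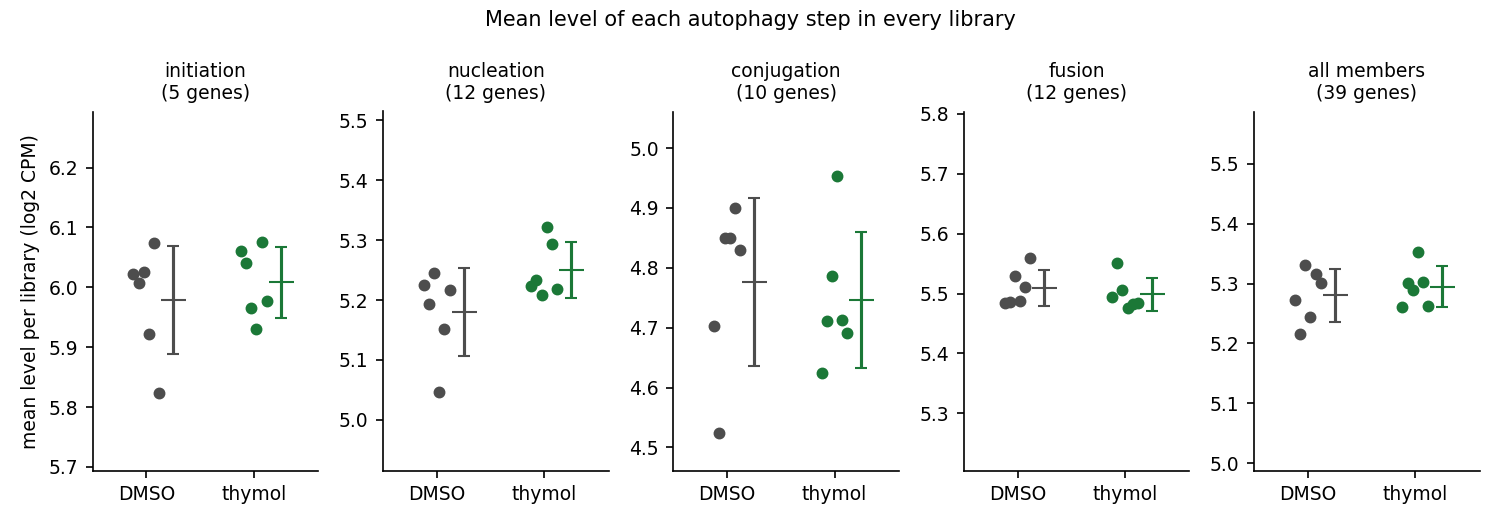
Mean level of the measured members of each step (log2 CPM, y axis) in every DMSO and thymol library (x axis), with 1 point per library and the bar giving mean ± SD of 6 libraries; the panels share the same span of the y axis but not its position. The groups overlapped in every panel, and nucleation showed the greatest shift, a difference of 0.070.

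The machinery spanned a wide range of levels. The median member level was 5.29, near the 5.02 of all genes, and 22 of the 39 members lay above that all-gene median. Rab7, the late endosomal GTPase, was the most abundant at percentile 95.4 of all genes, and Atg4d, a protease that processes ATG8 proteins, the least abundant at percentile 14.9. These corresponded to means of 2042 and 62.6 reads per library.

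**Figure D2:**
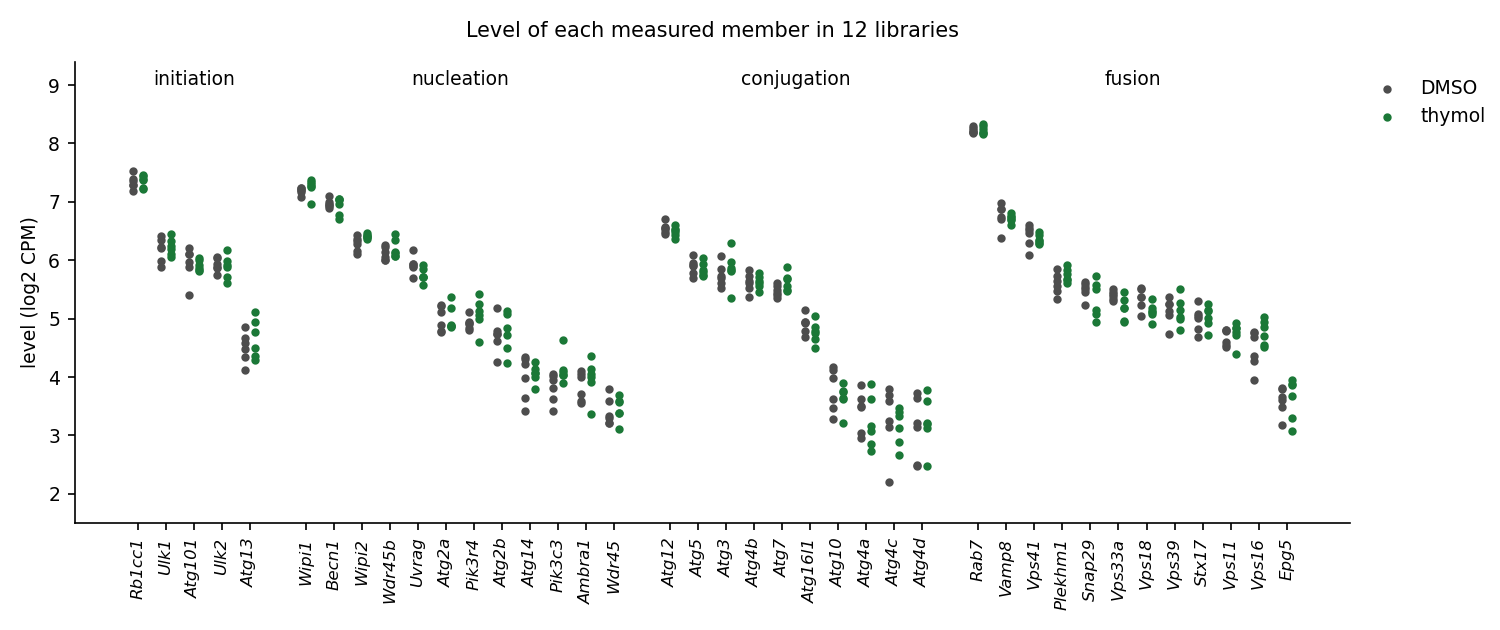
Level of each of the 39 measured members (log2 CPM, y axis) in all 12 libraries, grouped by step and sorted by mean level within a step, with DMSO in grey and thymol in green and 1 point per library. For every gene the thymol points overlapped the DMSO points, and the lowest genes, such as Atg4c and Atg4d, spread the most.

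Initiation was compared through the 5 genes of the ULK complex, all of which were measured. Their mean level was 5.93, 6.01 and 6.08 in the lowest, median and highest thymol library and 5.82, 6.01 and 6.07 in DMSO, so 5 of the 6 thymol libraries lay within the DMSO range. The step difference was 0.029 with a 95% interval from -0.064 to 0.14, and 3 genes were above 0 and 2 below. Rb1cc1, which encodes the scaffold FIP200, was the most abundant of the complex. It measured 7.23, 7.39 and 7.47 (lowest, median, highest) with thymol and 7.19, 7.32 and 7.53 with DMSO. All thymol libraries lay inside the DMSO range, and the log2 fold change of Rb1cc1 was 0.017 (95% interval -0.12 to 0.15, limma).

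Ulk1, a kinase that mTORC1 and AMPK phosphorylate in opposing ways, measured 6.05, 6.22 and 6.45 with thymol and 5.89, 6.22 and 6.41 with DMSO. The medians coincided and 1 thymol library exceeded every DMSO library. Its log2 fold change was 0.047 (-0.13 to 0.23, limma adjusted p = 0.920). Atg13, the subunit that links the kinases to FIP200, was the least abundant of the complex and had its smallest p. Thymol libraries read 4.29, 4.63 and 5.11 and DMSO libraries 4.12, 4.53 and 4.85, with 2 thymol libraries above all DMSO ones. That gave a log2 fold change of 0.15 (-0.14 to 0.45, limma adjusted p = 0.783), which was 0.064 without thymol replicate 1 and 0.077 without DMSO replicate 2. For the second kinase, Ulk2, and for Atg101, the partner that stabilizes ATG13, the log2 fold changes were -0.037 (-0.23 to 0.15) and -0.033 (-0.23 to 0.17).

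Nucleation had the largest step difference, and its interval reached just below 0. With thymol the mean of its 12 measured genes, of 14 listed, was 5.21, 5.23 and 5.32 (lowest, median, highest), and with DMSO 5.05, 5.21 and 5.25. The 2 highest libraries were thymol, and the other 4 thymol libraries lay within the DMSO range. The difference was 0.070 with a 95% interval from -0.0060 to 0.15, or 4.96% with an interval from -0.413% to 11.1%, and 10 of the 12 genes were above 0. Taken apart, the class III PI3-kinase genes (6 of 7 measured) differed by 0.078 (-0.034 to 0.19) and the ATG2 and WIPI genes (6 of 7 measured, without Atg9a) by 0.062 (-0.064 to 0.18), the latter with estimates above 0 for 6 of 6.

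Pik3c3 encodes VPS34, the lipid kinase that makes PI3P, and had the largest estimate among all members. It measured 3.91, 4.06 and 4.63 with thymol and 3.41, 3.88 and 4.06 with DMSO. All 6 thymol libraries lay above the DMSO median and 3 lay above every DMSO library, with the highest thymol library standing well apart from the rest. The log2 fold change of Pik3c3 was 0.32 (-0.021 to 0.66, limma adjusted p = 0.469). Uvrag, a beclin 1 partner found in the endosomal form of the complex in place of ATG14, pointed the other way. Thymol libraries read 5.57, 5.72 and 5.92 and DMSO libraries 5.69, 5.92 and 6.17, and 5 of the 6 thymol libraries were below the DMSO median. Its log2 fold change was -0.17 (-0.36 to 0.015, limma adjusted p = 0.484).

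The other members of the complex gave smaller estimates. Becn1, the beclin 1 scaffold, differed by -0.042 (-0.18 to 0.10), and an exon of Cntd1 on the opposite strand overlaps its last 1000 bp. Pik3r4, which encodes the regulatory subunit VPS15, differed by 0.15 (-0.092 to 0.40). For Atg14, which brings the complex to the phagophore, the value was 0.070 (-0.27 to 0.41), and for Ambra1, a beclin 1-binding scaffold, 0.14 (-0.22 to 0.49).

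Wipi1, a PI3P-binding protein of the phagophore, was the most abundant nucleation gene. It read 6.97, 7.29 and 7.37 with thymol and 7.08, 7.20 and 7.24 with DMSO. Here 5 thymol libraries lay above all DMSO libraries and the remaining 1 lay below all of them, and the log2 fold change was 0.067 (-0.069 to 0.20, limma adjusted p = 0.793). Wdr45, also called WIPI4, was the least abundant, at 3.11, 3.48 and 3.70 with thymol and 3.21, 3.32 and 3.80 with DMSO. The groups overlapped almost fully, and the log2 fold change was 0.048 (-0.35 to 0.44). The end of Wdr45 overlaps Gm45208 on the same strand, so not all of its reads may have been counted for it. Among the others, Wipi2, which recruits ATG16L1, differed by 0.13 (-0.024 to 0.29), Wdr45b by 0.082 (-0.090 to 0.25), and the lipid transfer genes Atg2a and Atg2b by 0.0086 (-0.24 to 0.26) and 0.032 (-0.26 to 0.33).

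**Figure D3:**
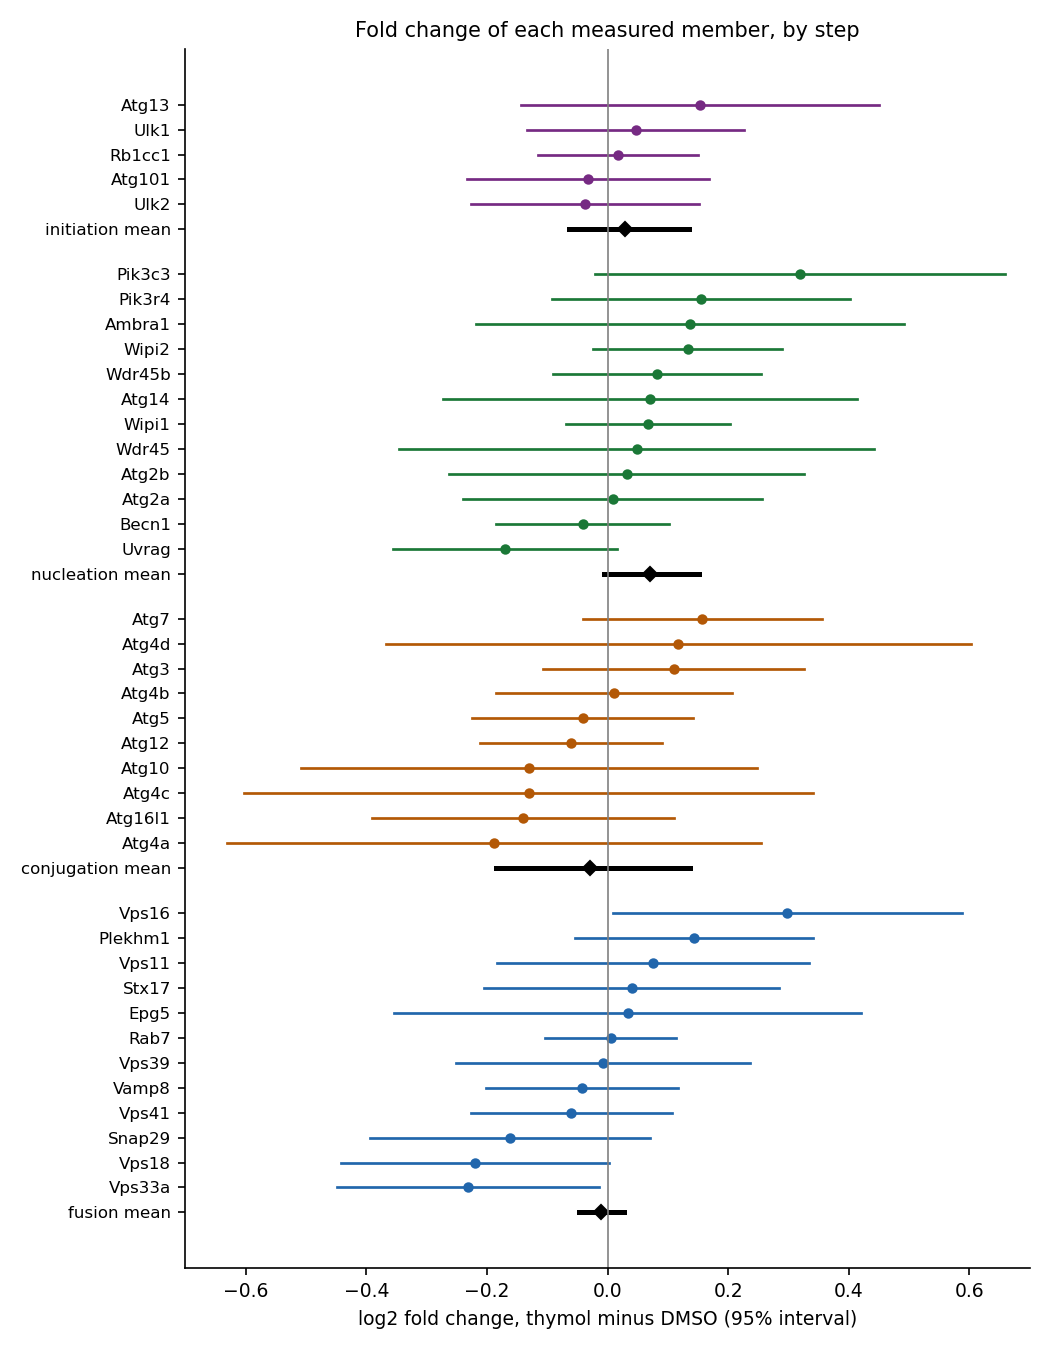
Log2 fold change of each measured member, thymol minus DMSO (x axis), with its 95% interval from limma, by step and sorted by estimate (y axis); black diamonds give the step mean with its permutation-based 95% interval. All intervals but those of Vps16 and Vps33a cross 0, and these 2 lie on opposite sides of it.

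Conjugation, the step that lipidates LC3 and its relatives, was centered near 0. The mean of its 10 genes, all measured, was 4.62, 4.71 and 4.95 (lowest, median, highest) with thymol and 4.52, 4.84 and 4.90 with DMSO, and 5 of 6 thymol libraries lay within the DMSO range. The difference was -0.030 with a 95% interval from -0.18 to 0.14, with 4 genes above 0 and 6 below. The roles within the step differed in estimate: the activating and conjugating enzymes Atg7, Atg3 and Atg10 averaged 0.045 (-0.14 to 0.24), the ATG12-ATG5-ATG16L1 ligase genes -0.081 (-0.18 to 0.010) with 3 of 3 below 0, and the 4 ATG4 proteases -0.048 (-0.38 to 0.31). Whether these 3 groups differ from each other was not tested.

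Atg7, the E1-like enzyme shared by the ATG12 and ATG8 reactions, had the smallest p of the step. It measured 5.48, 5.62 and 5.89 with thymol and 5.35, 5.47 and 5.61 with DMSO. Every thymol library exceeded the DMSO median and 3 exceeded all DMSO libraries, for a log2 fold change of 0.16 (-0.041 to 0.36, limma adjusted p = 0.584). Atg3, the E2-like enzyme that hands ATG8 proteins to the lipid, differed by 0.11 (-0.11 to 0.33), and Atg10, the E2-like enzyme for ATG12, by -0.13 (-0.51 to 0.25).

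In the ligase, Atg12, the ubiquitin-like subunit, was the most abundant gene of the step, at 6.36, 6.50 and 6.60 with thymol and 6.45, 6.54 and 6.71 with DMSO. The 2 lowest libraries were thymol, and its log2 fold change was -0.061 (-0.21 to 0.090). Atg16l1, which places the ligase on the membrane, read 4.49, 4.78 and 5.04 with thymol and 4.69, 4.93 and 5.15 with DMSO. Again 2 thymol libraries lay below all DMSO ones, and the log2 fold change was -0.14 (-0.39 to 0.11, limma adjusted p = 0.753). Atg5, the acceptor of ATG12, differed by -0.041 (-0.22 to 0.14).

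Of the proteases, Atg4a, Atg4c and Atg4d varied most between libraries. Atg4d read 2.47, 3.20 and 3.78 with thymol and 2.47, 3.18 and 3.73 with DMSO, nearly the same range in both groups. With 34 to 107 reads per library, its log2 fold change of 0.12 had the widest interval of all members, from -0.37 to 0.60. Atg4a and Atg4c were similarly low and gave -0.19 (-0.63 to 0.25) and -0.13 (-0.60 to 0.34), whereas Atg4b, the main protease of the family and far more abundant at a level of 5.63, gave 0.011 (-0.18 to 0.21). Across the 39 members the spread between libraries was 2.12 times (median) what read counting alone would give, with a range from 1.31 for Wdr45 to 3.40 for Atg3, if every read is counted as independent.

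Fusion had the tightest step mean, yet it held the members with the largest estimates in each direction besides Pik3c3. The mean of its 12 genes, all measured, was 5.48, 5.49 and 5.55 (lowest, median, highest) with thymol and 5.48, 5.50 and 5.56 with DMSO. The difference was -0.011 with a 95% interval from -0.047 to 0.028, and 6 genes were above 0 and 6 below. Rab7 was the most precisely measured of all members, at 8.16, 8.22 and 8.34 with thymol and 8.18, 8.22 and 8.30 with DMSO. Its log2 fold change was 0.0055 (-0.10 to 0.11), and its sign turned when libraries were centered on their medians. Epg5, a RAB7 effector that tethers autophagosomes to late endosomes and lysosomes, was the least abundant of the step, at 3.07, 3.77 and 3.96 with thymol and 3.19, 3.64 and 3.82 with DMSO. Thymol libraries lay both above and below the whole DMSO range, and the log2 fold change was 0.033 (-0.35 to 0.42). Plekhm1, an adaptor between RAB7, ATG8 proteins and HOPS, differed by 0.14 (-0.054 to 0.34), and an exon of Arhgap27os1 on the opposite strand overlaps its last 1000 bp.

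The 3 SNARE genes averaged -0.055 (-0.20 to 0.086). Stx17, the autophagosomal syntaxin, gave 0.040 (-0.20 to 0.28), Vamp8, its lysosomal partner, -0.043 (-0.20 to 0.12), and Snap29, the bridging SNARE, -0.16 (-0.39 to 0.071).

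HOPS, the tether that docks autophagosomes and late endosomes at lysosomes, contributed both members with an unadjusted p under 0.05 in limma. Neither was under 0.05 in the exact rank-sum test. It is built from the class C core subunits VPS11, VPS16, VPS18 and VPS33A and from VPS39 and VPS41, and VPS16 holds VPS33A, the subunit that binds SNAREs, in the complex. The promoter windows of Vps16 and Vps33a are shown, a choice made after the values were seen. These members had the smallest limma p-values with opposite signs, while their windows share a palindrome. That of Atg3 is shown because it is the third measured member with that palindrome. The windows run from 250 bases before to 50 after the RefSeq transcription start in GRCm38.p6. They lie at chr2:130424070-130424369 (plus strand, Vps16), chr5:123572966-123573265 (minus strand, Vps33a) and chr16:45158579-45158878 (plus strand, Atg3), and capitals mark TCACGTGA.
Vps16: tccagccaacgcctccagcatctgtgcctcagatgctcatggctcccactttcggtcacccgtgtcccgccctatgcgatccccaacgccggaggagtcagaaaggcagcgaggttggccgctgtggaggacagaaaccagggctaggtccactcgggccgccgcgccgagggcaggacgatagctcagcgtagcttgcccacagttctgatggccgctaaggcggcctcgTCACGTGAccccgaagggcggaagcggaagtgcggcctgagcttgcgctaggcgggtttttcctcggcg
Vps33a: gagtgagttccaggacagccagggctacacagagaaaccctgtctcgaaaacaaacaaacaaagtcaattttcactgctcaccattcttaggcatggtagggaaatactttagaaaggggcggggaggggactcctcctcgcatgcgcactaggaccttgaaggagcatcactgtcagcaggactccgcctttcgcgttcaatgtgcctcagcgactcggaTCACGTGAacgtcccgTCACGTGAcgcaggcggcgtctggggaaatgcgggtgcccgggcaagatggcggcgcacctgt
Atg3: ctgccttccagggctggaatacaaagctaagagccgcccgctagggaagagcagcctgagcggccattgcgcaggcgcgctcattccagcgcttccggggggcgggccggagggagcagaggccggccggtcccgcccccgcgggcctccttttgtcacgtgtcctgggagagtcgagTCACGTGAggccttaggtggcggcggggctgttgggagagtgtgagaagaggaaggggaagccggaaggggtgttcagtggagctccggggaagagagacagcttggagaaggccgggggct
TCACGTGA is the center of the CLEAR element, which TFEB and its relatives bind in front of lysosomal and autophagy genes, and it contains the E-box CACGTG; both words read the same on either strand. The Vps16 window held it 19 bases before the start, the Vps33a window at 29 and 13 bases before, and the Atg3 window at 72 before, with a further CACGTG at 94 left in lower case. Of the 32 members with a RefSeq window, 4 held TCACGTGA (Atg3, Nrbf2, Vps16 and Vps33a), or 12.5%, beside 1.125% of 27025 genes and 0.974% of 32851 windows. CACGTG was in 7 members, or 21.9%, these 4 with Atg14, Atg5 and Atg7, beside 8.09% of genes and 7.15% of windows. Both bases hold every gene with a window, also genes not in the table, whereas all of these members but Nrbf2 are in it. The shares thus rest on unlike sets of genes, and their gap was not tested. No window was matched for Rb1cc1, Becn1, Pik3c3, Wdr45b, Atg12, Atg16l1, Epg5, Vps11 and Vps39. A match describes the letters of the window and is not a binding site or a cause.

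In the GENCODE vM21 annotation of GRCm38, Vps33a spans chr5:123528659-123573038 (minus strand), Vps16 chr2:130424339-130444269 (plus strand) and Vps18 chr2:119288740-119298453 (plus strand). Vps33a measured 4.94, 5.18 and 5.46 with thymol and 5.31, 5.41 and 5.51 with DMSO. In 4 of the 6 thymol libraries it lay below every DMSO library, and the ranges overlapped. The log2 fold change was -0.23 (-0.45 to -0.014), a fold of 0.852, with a limma adjusted p = 0.373. Vps16 measured 4.52, 4.78 and 5.02 with thymol and 3.95, 4.52 and 4.77 with DMSO. Here 3 thymol libraries lay above every DMSO library, and none lay below. The log2 fold change was 0.30 (0.0085 to 0.59), a fold of 1.23, with a limma adjusted p = 0.403, and without DMSO replicate 1 it was 0.19.

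Set against each other within a library, a contrast chosen after these values were seen and given without a test, Vps16 lay below Vps33a by less with thymol. The log2 level of Vps16 minus that of Vps33a was -0.63, -0.45 and -0.16 with thymol and -1.56, -0.90 and -0.56 with DMSO, and 5 of 6 thymol libraries lay above every DMSO library. The means were -0.41 ± 0.18 and -0.94 ± 0.36 (SD, n = 6 each), a difference of 0.53. This pair joins the 2 members with the smallest limma p-values, which had opposite signs, so a large difference was built into the choice. The values of other pairs therefore do not set this pair apart. Atg14 minus Uvrag differed by 0.24 and Pik3c3 minus Pik3r4 by 0.16. Ulk1 minus Ulk2 differed by 0.084, with 3 thymol libraries above every DMSO library, and Wipi1 minus Wipi2 by -0.066. Of the other core subunits, Vps18, also named after its values were seen, read 4.91, 5.12 and 5.33 with thymol and 5.05, 5.37 and 5.52 with DMSO. No thymol library exceeded the DMSO median, and the log2 fold change was -0.22 (-0.44 to 0.0023, limma adjusted p = 0.430). Vps11 gave 0.076 (-0.18 to 0.33), and the HOPS-specific subunits Vps39 and Vps41 gave -0.0078 (-0.25 to 0.24) and -0.060 (-0.23 to 0.11). The mean over the 6 subunits differed by -0.024 (-0.10 to 0.046).

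**Figure D4:**
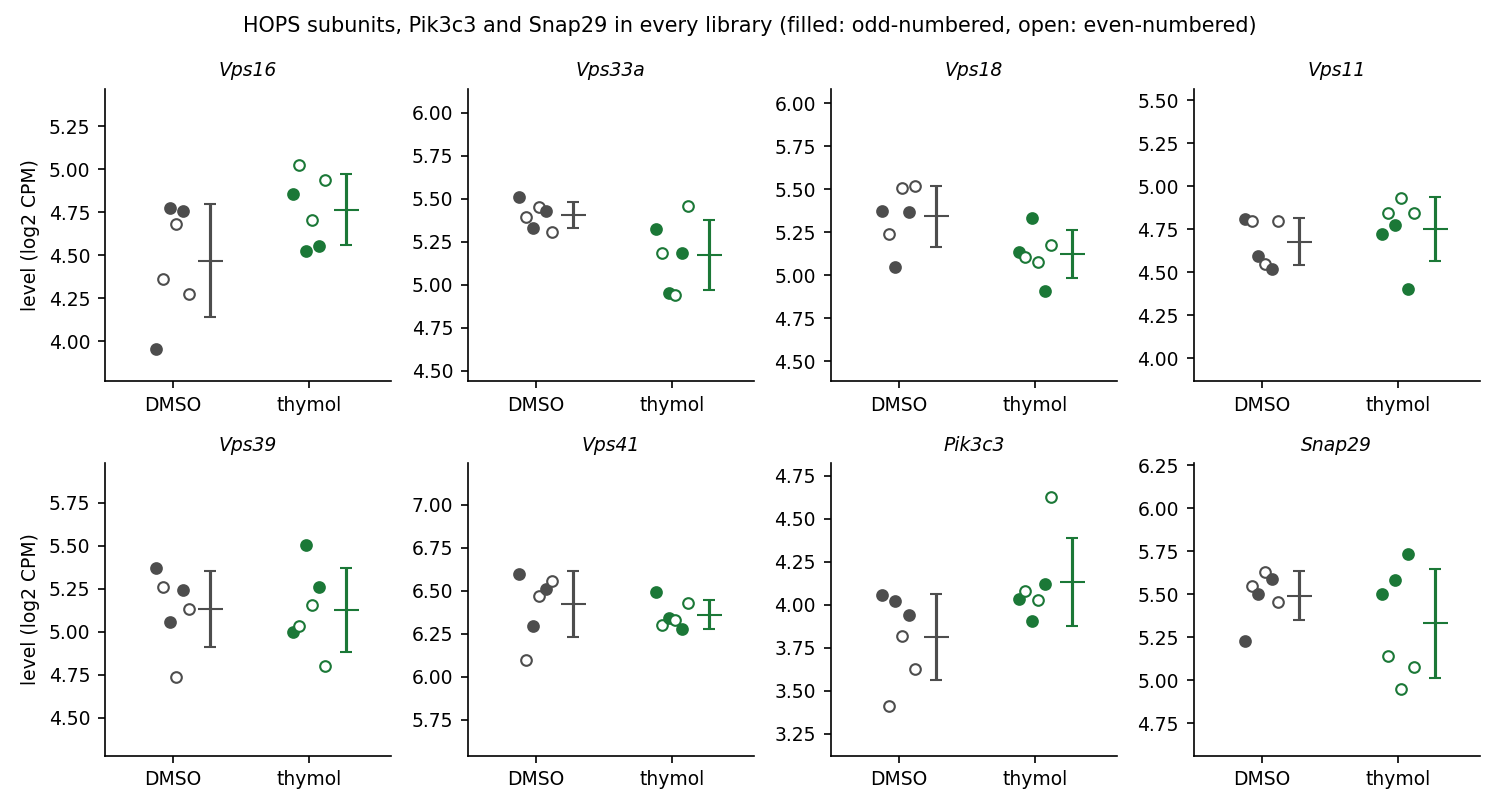
Level (log2 CPM, y axis) of the 6 HOPS subunits, Pik3c3 and Snap29 in every DMSO and thymol library, with odd-numbered libraries filled, even-numbered ones open and bars giving mean ± SD of 6 libraries; the panels share the same span of the y axis. Vps16 sat higher and Vps33a and Vps18 lower with thymol, with overlap in each, and in thymol the 3 even-numbered Snap29 points lay below the 3 odd-numbered ones.

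Libraries with odd and with even numbers were also compared apart, because earlier results had shown them to differ in these data; the labels give no batch for them. The step differences in odd-numbered and even-numbered libraries (3 against 3 each) were -0.0059 and 0.065 for initiation, 0.035 and 0.11 for nucleation, -0.11 and 0.050 for conjugation, and -0.014 and -0.0072 for fusion. Nucleation and fusion had the same sign in both, and the other steps did not. Of the 39 members, 25 had the same sign in both sets and 14 the opposite sign. Vps16 gave 0.15 and 0.45, Vps33a -0.27 and -0.19, and Vps18 -0.14 and -0.30. These 3 were chosen on all 12 libraries, which hold both sets, so their like signs support nothing. Pik3c3 gave 0.012 in odd-numbered and 0.63 in even-numbered libraries, Atg4d -0.46 and 0.69, and Atg16l1 0.096 and -0.38. None of these gaps was tested.

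Snap29 showed the split within thymol alone, an observation made after its values were seen. Its level was 5.50, 5.58 and 5.74 in the odd-numbered thymol libraries and 4.95, 5.08 and 5.14 in the even-numbered ones. In DMSO the odd-numbered libraries read 5.23, 5.50 and 5.59 and the even-numbered ones 5.45, 5.55 and 5.63, with no such gap. The estimates were 0.17 in the odd-numbered and -0.49 in the even-numbered libraries, and the latter had an adjusted p of 0.134 in limma, the lowest of any member under any setting run.

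Other genes of the pathway were counted from 4 lists of 98 genes, 92 of them measured. None passed the adjusted threshold in limma (0 of 92) or with voom, beside 2.22% of all genes in limma. In limma 6 (6.52%) had an unadjusted p under 0.05, beside 11.8% of all genes. The median log2 fold change was 0.014, beside 0.0026 over all genes. The other alternatives also gave 0, but the exact rank-sum test passed 0 of all genes as well. ATG8 proteins and cargo receptors (22 of 22 measured) had 12 estimates above 0 and 10 below, and the smallest p was that of Fkbp8, a mitophagy receptor, at -0.15 (-0.29 to -0.0030, limma adjusted p = 0.410). Regulators of the mTORC1, AMPK and MiT/TFE systems (27 of 28) had 14 above and 13 below. Mitf, a relative of TFEB, had the smallest p of this list. It measured 5.21, 5.35 and 5.48 with thymol and 4.86, 5.03 and 5.35 with DMSO, for a log2 fold change of 0.28 (0.065 to 0.50, limma adjusted p = 0.218). Of the same family, Tfeb gave 0.25 (-0.18 to 0.68) and Tfe3 0.019 (-0.14 to 0.18). A link of these values to the promoter windows was not tested. Of the remaining phagophore factors (21 of 24), 13 were above 0 and 8 below, and Sec23b, a COPII coat subunit, had the smallest p, at 0.27 (0.047 to 0.50, limma adjusted p = 0.272). Among the remaining fusion and RAB7 factors (22 of 24), 11 lay on each side of 0, and Plekhm2, an adaptor between ARL8 and kinesin, had the smallest p, at 0.17 (0.0070 to 0.33, limma adjusted p = 0.388).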

How the data were processed

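QuantSeq 3′ libraries (forward kit) of 6 thymol and 6 DMSO samples were analyzed, grouped by the treatment in the labels. The authors aligned reads to GRCm38 with STAR 2.5.3, counted them per gene with HTSeq 0.6.1, required 30 reads in 6 or more samples for an annotated gene and normalized by TMM (trimmed mean of M-values). The deposited log2 values are log2 CPM with a prior count; the strand setting of the counting is not given in the sources used here. Undoing the logarithm recovered whole reads: of 60328 values below 200 reads, 100% came within 0.02 of an integer, with a prior of 1.96 reads in an average library. In these reads 98.0% of the genes met the authors' minimum. PCR reads are not independent molecules, so depth covers counting error only, and the prior pulls fold changes of low genes towards 0.

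All 10697 genes were fitted in limma 3.58.1 (R 4.3.3) with 2 groups, no covariate and a mean-variance trend. Two-sided p-values received a Benjamini-Hochberg correction across all genes, with a threshold of 0.05, and every interval of a single gene comes from this fit. The authors had tested counts with edgeR. Intervals of step means hold the shifts that an exact two-sided permutation test over the 924 relabellings of the libraries did not reject. Both procedures were tested on simulated data.

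Lowest, median and highest values are given for members past the threshold, for the 2 smallest p-values and for the highest and lowest mean level of each step, and for pathway genes past the threshold or with the smallest p of a list. The ATG2, ATG9 and WIPI genes were placed in nucleation. The members, lists and alternatives were chosen with earlier results of these data known. Alternatives were other fits, pseudocounts, filters, scalings and subsets of libraries. Gene ends were compared over their last 1000 bp in GENCODE vM21.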

Additional observations from a re-analysis of the deposited data

Results flagged for a closer look

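Each measured member and step mean was examined, with library depth, for a library far from the others of its group; 3 of 90 groups held one, and chance flags about 1 in 20 groups, or 4.5 of 90. Pik3c3 was 4.629 in thymol replicate 6, above the next highest thymol library at 4.119 by 0.705 of the group's range, and without that library the log2 fold change was 0.22. Wipi1 was 6.969 in thymol replicate 3, below the next lowest thymol library at 7.261 by 0.736 of the range, and without it the log2 fold change was 0.12. The recovered reads of thymol replicate 5 came to 9.05e+06, above the next deepest thymol library at 6.585e+06 by 0.682 of the range.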

How the results depend on the processing

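No member passed the adjusted threshold under any of the alternatives run with limma, voom or an exact rank-sum test, and the lowest adjusted p per setting ranged from 0.134 to 0.670. Over all genes, 57 instead of 238 passed without the mean-variance trend, 70 with odd-numbered libraries alone and 0 in the exact rank-sum test (smallest possible p 0.002165), in which 1016 genes had an unadjusted p under 0.05; leaving out 1 library gave 172 to 270. The labels link same-numbered thymol and DMSO libraries by number alone, and whether they were paired is not known. Their deviations from the group means correlated at -0.051 to 0.27, and not every library correlated best with its own number. These correlations cannot decide whether a pairing exists. With a replicate block 332 genes, instead of 238, and 0 members passed, and no other call moved. Of the members, 19 had the same sign in every setting that tested them and 20 did not, over 24 settings, 1 of which (genes with a mean above 5) tested 24 of the 39. Some of these settings cannot turn a sign, because they leave every estimate as it was. These are limma without the trend, robust eBayes, the replicate block and odd or even number as a term. Odd-numbered libraries alone turned the sign of 9 members and even-numbered ones of 5; among the genes named by rule these were Ulk1 (-0.099), Atg16l1 (0.096), Atg4d (-0.46) and Epg5 (-0.13) in odd-numbered and Rab7 (-0.017) in even-numbered libraries, and Rab7 also turned after median centering (-0.0053). Leaving out 1 library gave ranges across 0 for 16 members, among the named genes Ulk1 (-0.012 to 0.093), Rb1cc1 (-0.013 to 0.055), Atg4d (-0.011 to 0.27), Rab7 (-0.015 to 0.021) and Epg5 (-0.048 to 0.14). It gave step differences from -0.0015 (without DMSO replicate 6) to 0.048 for initiation, 0.043 (without DMSO replicate 4) to 0.083 for nucleation, -0.080 (without DMSO replicate 2) to -0.0050 for conjugation and -0.021 to -0.00071 for fusion. Over genes with a mean above 5 these differences were -0.0015, 0.013, 0.035 and -0.059, in the same order, and -0.012 over all members. With the median instead of the mean over members taken within each library, fusion differed by -0.13 and all members by -0.098; this is another quantity than the median fold change of 0.017. The cause was not tested. Among the members depth was lowest for Atg4d, at a mean of 62.6 reads per library, and differences inside its interval (-0.37 to 0.60) could not be resolved.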
